A study of Mus musculus with 12 samples.

Results

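Eyelid RNA of wild-type mouse embryos was compared between E15.5 and E14.5, the letter standing for the embryonic day. The comparison uses 4 of the 12 arrays of the series: the 2 titled E15WT and the 2 titled E14WT, which the labels call biological replicates. The arrays are Agilent mouse arrays with probes of 60 bases, read in 2 colours. Cy3 marked the eyelid RNA. Cy5 marked a reference common to all arrays, RNA pooled from mouse cell lines and mixed with that of embryonic stem cells. Every value is therefore a log2 ratio of eyelid over reference, and a positive difference means more signal at E15.5. All embryos were of strain C57BL6/J per the labels. Of 42006 probes on the array, 31274 were tested: at E14.5, at E15.5 or at both, each had Cy3 signal well above background on the 2 arrays. The other 8 arrays hold wild-type eyelids at E16.5 and eyelids of Tabby mutants at all 3 stages, with 2 arrays in each group. The labels do not say whether eyelids were pooled over embryos, and their text on treatment is about skin of the footpad from older mice. The groups here follow the title, source and tissue of each sample.

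Stage and slide cannot be told apart. Each stage was hybridised on a slide of its own, with the wild-type and the Tabby arrays of that stage side by side, so a difference between slides would enter every difference between stages. In whole eyelid RNA, a change in the share of a cell type and a change of RNA per cell cannot be told apart either. The deposited files name probes by identifier and 60-base sequence only, so the eyelid label could not be checked against marker genes, and no gene is named from memory.

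In the mouse, the eyelids first form as folds of surface ectoderm and mesenchyme at the rim of the eye. Their epithelial tips then grow across the cornea and join, so that the eye is covered until after birth. Over the same part of gestation the lid epidermis stratifies and begins to keratinise, and the first hair follicles form in the skin. Tabby mice lack functional ectodysplasin, a ligand of the tumour necrosis factor family that skin appendages need, and in the adult they lack the Meibomian glands of the eyelid.

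The probes on which the results turn are shown here by their sequence, read 5′ to 3′ from the scanner files. The first 4 are the probes with the 2 highest rises and the 2 largest falls among probes that were called, were well above background on all 4 arrays and had no overlap between the groups. They are given by their first 30 bases, in lower case.
Z00040191-1: cctgtccaccagcgttcagctgtagccttc
Z00042679-1: aaaggaggtcctccaccatgggcagtcttg
Z00023199-1: cggtctttccaccaactgcgactacgtgct
Z00056378-1: gtcgaaaagaggtggattttccctttatgg

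Some probes on the array share part of their sequence, so that they may read the same transcript or near-identical ones. Such pairs are shown because each gives a change as read by 2 probes. The 2 probes below share 22 bases, in capitals, and together cover 98 bases in which 1 of the 3 sense reading frames holds no stop codon.
Z00045240-1: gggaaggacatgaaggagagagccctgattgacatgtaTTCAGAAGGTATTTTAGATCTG
Z00060225-1: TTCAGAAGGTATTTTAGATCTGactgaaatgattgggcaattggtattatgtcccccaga

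For 4 further pairs, the first 30 bases of the shared run are given in capitals. The first 2 of them rose and the last 2 fell.
Z00042679-1 and Z00061036-1: ATGGGCAGTCTTGTGAACTTGCCTCTAAAC
Z00025964-1 and Z00047655-1: GAAAATGGGACAGCCTTGGCTTCTCTTGTA
Z00054196-1 and Z00049101-1: CGGTGGGACGCAATCACTAAAGGTTCATAT
Z00073695-1 and Z00072949-1: TTAATTTTATGTTAAAGAAGGCACCCCTAC

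Between E14.5 and E15.5, large changes in wild-type eyelid were mostly rises. At an adjusted p under 0.05 in limma, with all 12 arrays in the fit, 5474 of 31274 probes (17.5%) were called. Of these, 2817 (9.01% of those tested) rose and 2657 (8.5%) fell. A change of at least 2-fold was seen in 573 of the risers (1.83% of probes tested) but in only 101 of the fallers (0.323%). At 4-fold or more there were 143 rises and 9 falls, at 8-fold or more 45 rises and 1 fall, and 20 probes rose at least 16-fold. Most calls were small: 3869, or 70.7%, were under 1.5-fold. The median rise among called probes was 1.45-fold and the median fall 1.25-fold. The median difference over all probes tested was -0.02.

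The 2 groups did not overlap at any of the 5474 called probes. Without a call being required, E15.5 lay above E14.5 on both arrays at 8438 probes (27.0%) and below it on both at 10961 (35.0%). How many probes were called depended on which arrays gave the spread. With only the 4 wild-type arrays in the fit, 2048 of 31275 probes (6.55%) were called, 1385 up (4.43%) and 663 down (2.12%), and 1940 of them were among the 5474. That fit called 439 of the 573 rises of 2-fold or more and 38 of the 101 falls. Without E14WT replicate 1 the count was 1941, and without E14WT replicate 2 it was 1788, where the lone E14.5 array is assumed to vary like the other groups.

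The highest rise among probes well above background on all 4 arrays was that of Z00040191-1. Its log2 ratio was -0.66 and -0.86 on the E14.5 arrays and 4.14 and 4.80 on the E15.5 arrays. Eyelid signal thus went from below the reference on both E14.5 arrays to far above it on both E15.5 arrays. The group means were -0.76 ± 0.14 and 4.47 ± 0.47 (SD, n = 2 each), a difference of 5.23 (SE 0.30), or 37.6-fold, with an adjusted p of 7.1e-05 in limma.

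Z00042679-1 stood at 0.08 and -0.39 at E14.5 and at 4.55 and 4.91 at E15.5. The gap between the stages was far wider than that between replicates of either stage. The difference was 4.88 (SE 0.27, adjusted p = 6.5e-05), or 29.5-fold. Its partner Z00061036-1, which shares 43 bases with it, went from 0.18 and -0.24 to 4.05 and 4.27, a difference of 4.19. Both probes of the pair hold their low and high values on the same arrays.

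Over the 12 highest rises chosen by the same rule, the difference ran from 3.94 to 5.23 and the adjusted p from 3.3e-05 to 0.0016. All 12 were also called with only the 4 wild-type arrays in the fit. The mean ratio of these probes lay between -2.34 and 0.54 at E14.5 and between 1.60 and 5.12 at E15.5. Replicate 2 was the higher of the E15.5 arrays at all 12, by 0.17 to 1.55.

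The largest fall was that of Z00023199-1, a probe with far more eyelid than reference signal at E14.5. It read 4.87 and 5.03 at E14.5 and 1.91 and 1.97 at E15.5. Replicates lay close together at both stages. The difference was -3.01 (SE 0.30), an 8.08-fold fall with an adjusted p of 0.00050, and with the 4 wild-type arrays alone the adjusted p was 0.018. With Feature Extraction's processed signals the difference was -1.79 (adjusted p = 0.0040), less than that of the next probe.

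The second of the fallers, Z00056378-1, was far less settled. It read 3.54 and 2.64 at E14.5 but 1.51 and -0.70 at E15.5, so that the E15.5 replicates lay 2.22 apart. Its difference of -2.68 (SE 0.77) had an adjusted p of 0.044, which became 0.15 with only the 4 wild-type arrays. Over all 25 alternative settings the adjusted p ran from 0.0087 to 0.22, and the call was lost in 17 of them. Its E16.5 values in wild type, 2.88 and 2.56, lay near those of E14.5.

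The 12 largest falls ran from -1.87 to -3.01, and 8 of them were called with the 4 wild-type arrays alone. Adjusted p-values in the 12-array fit lay between 0.00050 and 0.048. In contrast to the risers, the sign of the replicate gap was mixed: replicate 2 was the higher E15.5 array at 5 of the 12. Replicate 1 minus replicate 2 ran from -0.74 to 2.22.

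**Figure D1:**
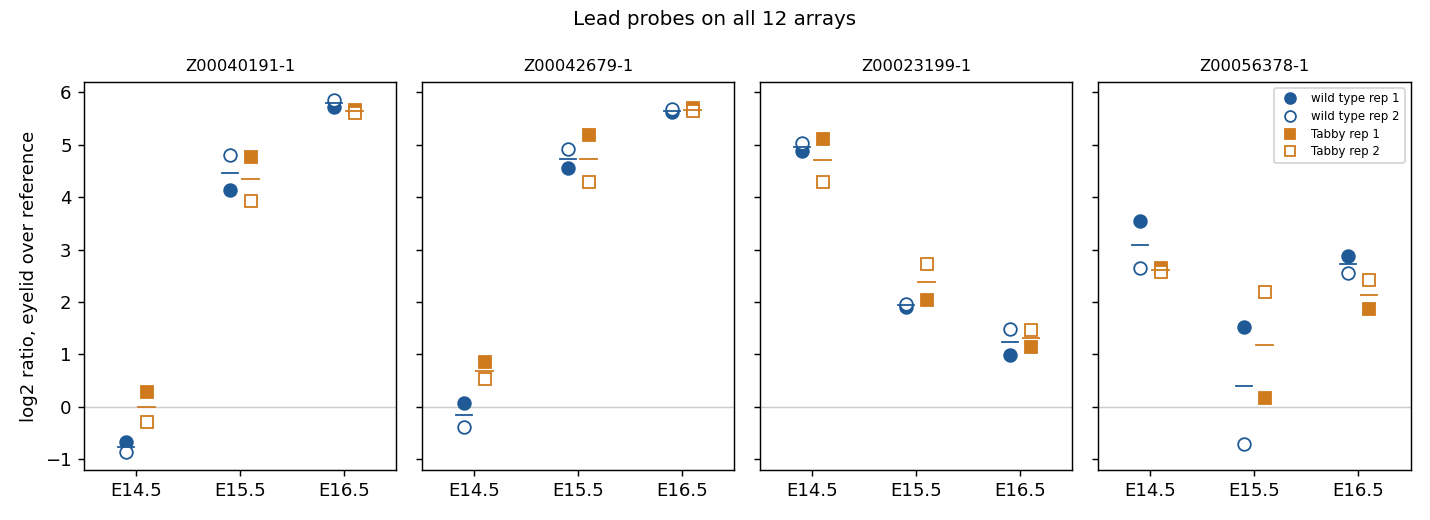
Log2 ratio of eyelid over reference (vertical axis) for the 2 highest rises and 2 largest falls, on all 12 arrays by embryonic day (horizontal axis). Filled symbols are replicate 1, open symbols replicate 2, bars the mean of 2 arrays, circles wild type and squares Tabby. The wild-type E15.5 points of the first 3 probes lie clear of E14.5, while Z00056378-1 spans 1.51 to -0.70 at E15.5.

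Of probes tested, 29489 were well above background on all 4 arrays, including 529 of the 573 rises and all 101 falls of 2-fold or more. In this processing, the largest difference of all tested probes belonged to one outside that set. Z00077092-1 was well above background on 1 of the E14.5 arrays and on both E15.5 arrays. It read 0.40 and 0.34 at E14.5 and 6.35 and 7.20 at E15.5, a difference of 6.40 (SE 0.30, adjusted p = 3.6e-05). In Cy5 alone its reference signal was higher at E15.5 by 5.75 (log2). The probe entered the test only through the E15.5 arrays, where it is high. With processed signals its difference was 4.60, and other probes, such as Z00071877-1 at 7.09, lay above it.

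A further 155 probes were well above background on both E15.5 arrays and on neither E14.5 array, and 53 of them were called, against 17.5% of all probes tested. They passed the filter through the stage at which they are high, so the count is a description. For these, the fold is given as a bound in the Cy3 channel after loess and Aquantile normalisation. The E15.5 mean is set against the higher of the probe's own E14.5 signal and the lowest signal well above background on each array. The bound is open to dye bias, since dyes were never swapped. It was at least 2-fold for 28 of the 53 probes and at least 10-fold for 9.

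The highest bound was that of Z00052819-1, whose first bases are aatcactacagatagcctaccatcctacca. Its Cy3 signal was at least 94.9-fold higher at E15.5, with ratios of 0.15 and 0.17 at E14.5 and 4.55 and 5.46 at E15.5. The next, Z00031262-1 (tgataactgcctgggtggttatcatcctgt), was at least 73.6-fold higher, with ratios of 0.00 and -0.16 against 4.72 and 5.51. Both bounds are of Cy3 signal and are set by the background at E14.5, which the probes did not clear. The ratio itself differed less, by 28.8-fold and 36.6-fold, and in Cy5 alone the reference signal of these probes was higher at E15.5 by 6.23 and 3.17 (log2). The adjusted p-values were 0.00017 and 9.7e-05, but the probes entered the test only through the E15.5 arrays, where they are high.

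In the other direction 142 probes, chosen in the same way, were well above background on both E14.5 arrays and on neither E15.5 array. Of these, 16 were called, against 17.5% of all probes tested. No bound reached 2-fold. The highest was 1.59-fold for Z00058234-1, which read 0.58 and 0.85 at E14.5 and 0.02 and -0.06 at E15.5. The next was 1.43-fold, for Z00024668-1. These values depended on the processing: the difference at Z00058234-1 was -0.74 here and -3.45 with Feature Extraction's processed signals.

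The E15.5 wild-type arrays differed from each other more than the replicates of any other group. The SD of replicate 1 minus replicate 2 over the probes tested was 0.28 in E15WT, against 0.12 in E14WT, 0.19 in E16WT, 0.14 in E14Ta, 0.17 in E15Ta and 0.18 in E16Ta. The replicates lay over 2-fold apart at 372 probes in E15WT and at 21 to 107 probes in the other groups. Replicate 1 was the higher array at 170 of the 372 and replicate 2 at 202, and 55 of the 372 were called between stages. The share of all probes well above background was 71.1% on replicate 1 and 78.6% on replicate 2, against 75.3% on each E14WT array. In every group the correlation of replicates across probes was above 0.97; it was lowest in E15WT, at 0.978.

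The direction of that gap varied with the ratio. Among the 161 probes tested whose E14.5 ratio was under -4, where the reference far outshone the eyelid, replicate 1 lay above replicate 2 by a median of 0.83. The median gap fell to 0.35 between -3 and -2, to 0.03 between -1 and 0, to -0.17 between 1 and 2 and to -0.30 above 3. Ratios on replicate 1 were therefore closer to 0 at both ends of the scale. Relative to the E14.5 mean, the median on replicate 1 was 0.90 for the lowest ratios and -0.38 for the highest. On replicate 2 it was -0.04 and -0.06, and in Tabby the change was 0.03 and -0.08.

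The gradient was present after normexp correction of the mean spot signal, which is the setting used here. With Feature Extraction's own processed signals and the same loess, which changes more than the background step, the median gap between the E15WT replicates was 0.03 for ratios under -4 and 0.13 for ratios above 3. The spread of the replicates was no smaller there: the SD was 0.30, and 450 probes lay over 2-fold apart.

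Calls moved with it. Of 3065 probes with an E14.5 ratio under -1, 676 rose and 79 fell. Without E15WT replicate 1 the counts were 486 and 126, and without replicate 2 they were 1621 and 43. Of 4228 probes with an E14.5 ratio over 1, 352 rose and 821 fell, against 529 and 383 without replicate 1 and 276 and 1536 without replicate 2. Between -1 and 1, where 23981 probes lay, 1789 rose and 1757 fell with all arrays. There the number of falls depended more than that of rises on which E15WT array was left out.

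**Figure D2:**
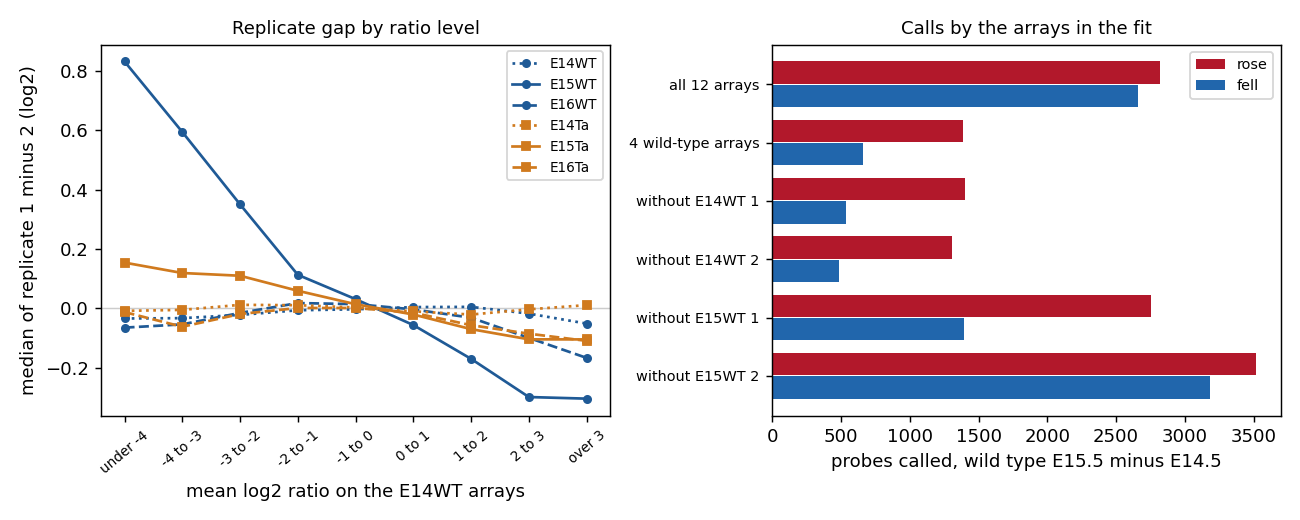
Left, the median of replicate 1 minus replicate 2 (log2) in each of the 6 groups, for probes binned by their mean log2 ratio on the E14WT arrays; right, numbers of probes called higher (red) and lower (blue) at E15.5 in wild type, by the arrays in the fit. The E15WT line runs from 0.83 to -0.30, and the counts fall to 1385 and 663 with only the 4 wild-type arrays.

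Over all probes, 4150 were called without E15WT replicate 1 (2755 up, 1395 down) and 6701 without replicate 2 (3519 up, 3182 down). Of the 5474 calls with all arrays, 3377 were among the former and 3945 among the latter. The large rises were the part that held: 569 of the 573 were called without replicate 1 and 558 without replicate 2. For the 101 falls of 2-fold or more the numbers were 77 and 82. In all, 478 of the rises and 23 of the falls were called whichever of the 4 wild-type arrays was left out.

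Set against the E14.5 mean, replicate 1 was at least 2-fold higher at 581 probes and at least 2-fold lower at 242, and replicate 2 at 785 and 119. Both arrays passed 2-fold at 454 probes upward and 68 downward. At 106 probes replicate 1 was at least 2-fold above E14.5 while replicate 2 was within 0.5 of it. These were probes with little eyelid signal for the reference, with a median ratio of -3.94 and -3.92 at E14.5, -2.80 on replicate 1 and -3.99 on replicate 2. In the reverse case, 101 probes rose on replicate 2 alone. Their median ratio was 0.50 and 0.49 at E14.5, 0.78 and 1.72 at E15.5, and a day later 2.41 and 2.22. The probes that rose on replicate 2 alone thus stood higher again at E16.5, and those that rose on replicate 1 alone stood at -3.88 and -3.78. At 93 probes replicate 1 alone was lower, with medians of 2.66 and 2.67 at E14.5, 1.49 and 2.40 at E15.5. At E16.5 these 93 stood at 2.05 and 2.22, also below E14.5. Replicate 2 alone was lower at 10 probes. Of the 106, 101, 93 and 10 probes, 7, 25, 24 and 0 were called, against 17.5% of all probes tested.

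At the 573 large risers, replicate 2 was above replicate 1 at 537 probes (93.7%, against 55.1% of all probes tested), with a median gap of -0.31. The risers were chosen by the mean of these arrays, so their level is fixed by the choice. The order of the replicates is not fixed, but the choice favours an array with wider changes. Nor are all probes matched to the risers by ratio. After normexp, the median gap was -0.17 for probes with an E14.5 ratio between 1 and 2. With processed signals, replicate 2 was above replicate 1 at 446 of the 573 (77.8%, against 48.3% of all), with a median gap of -0.12. At the 101 large fallers the direction of the gap depended on the processing: replicate 1 was the higher array at 42 after normexp, but at 91 with processed signals, where the median gap was 0.51.

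Tabby arrays, whose values do not enter the wild-type difference, gave sets of their own. These sets are not fully separate, since all groups share 1 estimate of the spread and the probes were filtered on wild-type signal. Of 1449 probes called at least 2-fold higher in Tabby at E16.5 than at E14.5, E15WT replicate 2 was the higher replicate at 1277 (88.1%), and at 1135 (78.3%) with processed signals. The median gap was -0.26 and -0.12. Of 226 probes called at least 2-fold lower in Tabby, replicate 2 was higher at 135 (59.7%) after normexp but at 56 (24.8%) with processed signals. At the probes that changed in Tabby, replicate 2 was thus further from E14.5 than replicate 1 for rises under either processing. For falls this held with processed signals, Feature Extraction's ratio, the authors' value table and the eyelid channel alone, but not in the settings with normexp.

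The widest replicate gaps among large risers were at 2 probes well above background at E15.5 but not at E14.5, Z00071877-1 (gctctttggttgttatccaacagcaggcga) and Z00026015-1 (ttcattcccttctagggatttctattcttg). Z00071877-1 read 0.17 and -0.08 at E14.5, 3.30 and 5.79 at E15.5, and 7.84 and 7.97 a day later. Z00026015-1 read -0.05 and -0.03, then 2.97 and 5.42, then 7.62 and 7.78. Both probes placed the E15.5 arrays between the stages before and after, with replicate 1 nearer to E14.5. Their differences of 4.50 and 4.24 had adjusted p-values of 0.011 and 0.013, which became 0.076 and 0.081 with only the 4 wild-type arrays.

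**Figure D3:**
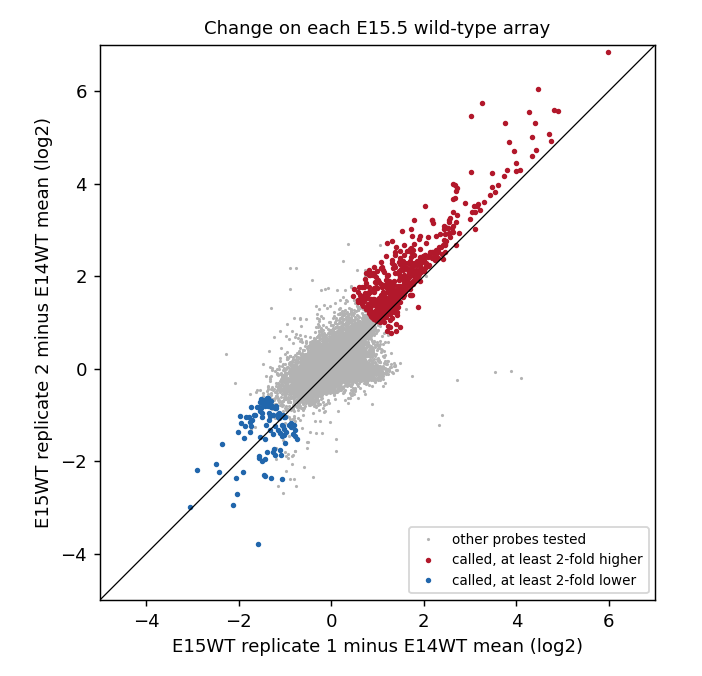
Log2 change of each tested probe from the E14WT mean on E15WT replicate 1 (horizontal) and replicate 2 (vertical), with called changes of at least 2-fold in colour and the line of equality in black. Most of the 573 red points (537) lie above the line, and the blue points lie on both sides of it.

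The same stages in Tabby eyelids gave a second set of arrays, on the same 2 slides. At the same 31274 probes, 4077 (13.0%) were called in Tabby, with 2430 (7.77%) higher and 1647 (5.27%) lower at E15.5. All 573 large wild-type rises were positive in Tabby and 553 of them were called there. All 101 large falls were negative in Tabby and 49 were called. The median change was 1.49 in wild type and 1.32 in Tabby for the risers, and -1.23 and -0.87 for the fallers. Since the probes were chosen on the wild-type change, a smaller value in Tabby is favoured by the choice. Over all probes tested, the changes in the 2 genotypes correlated at 0.90 across probes, which share the slides and the reference.

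A difference between the genotypes in the stage change was not detected. The interaction called 0 of 31274 probes (0.0%) in limma, and 761 (2.43%) had an unadjusted p under 0.05. With array weights, the replicate block or only the 8 arrays of these stages the count was also 0. It was 669 without E15WT replicate 2, the fit in which replicate 1 alone stands for wild type at E15.5, and 0 without replicate 1. The smallest unadjusted p, 0.00012, was that of Z00058639-1. It rose from -2.30 and -2.45 to -0.65 and -0.79 in wild type and from -1.79 and -1.82 to -0.85 and -0.78 in Tabby. The changes were 1.66 and 0.99, with an adjusted interaction p of 1.0.

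The lead probes ran alike in Tabby. Z00040191-1 went from 0.29 and -0.30 to 4.76 and 3.94, a change of 4.35 (adjusted p = 0.00026 in limma). Z00042679-1 changed by 4.05 and Z00023199-1 by -2.32 (adjusted p = 0.0024). Z00056378-1, with 2.65 and 2.58 at E14.5 against 0.17 and 2.18 at E15.5, was not called in Tabby (adjusted p = 0.27). Its replicates were far apart at E15.5 in both genotypes.

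**Figure D4:**
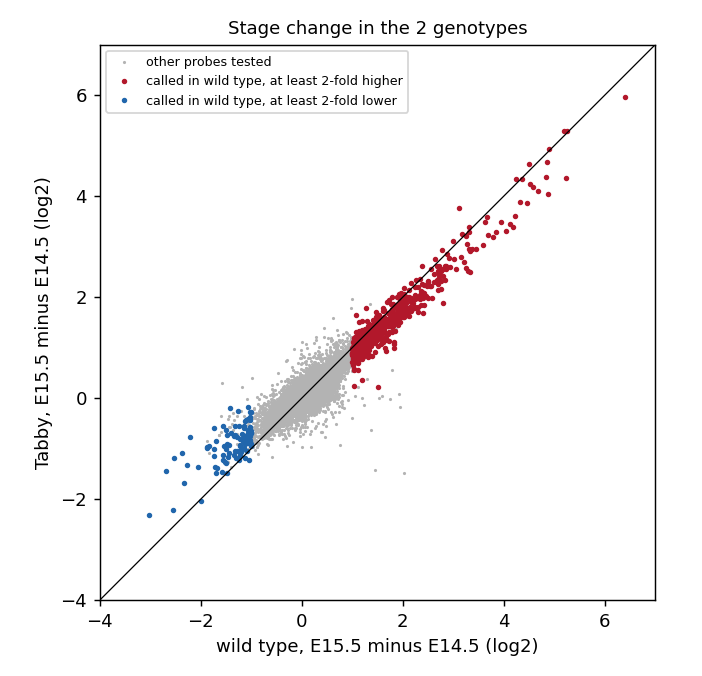
Change from E14.5 to E15.5 (log2) of each tested probe in wild type (horizontal) and Tabby (vertical), with probes called at least 2-fold in wild type in colour and the line of equality in black. All 573 red points lie above 0 and all 101 blue points below 0 on the Tabby axis.

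Replicates of E15Ta also differed at these probes. At the 573 risers, E15Ta replicate 1 was above replicate 2 by a median of 0.41, whereas E14Ta and E14WT had medians of 0.00 and 0.09. At the 101 fallers, E15Ta replicate 1 was below replicate 2 by a median of 0.38. The E15Ta gap kept its direction with processed signals, at 0.43 for the risers and -0.23 for the fallers.

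Levels one day later are set beside these. At the 573 risers the median ratio was 0.03 and -0.05 on the E14WT arrays, 1.38 and 1.88 on the E15WT arrays and 2.75 and 2.62 on the E16WT arrays. In Tabby the medians were 0.14 and 0.11, then 1.93 and 1.46, then 2.62 and 2.58. In either genotype, the medians thus rose at each stage. The wild-type step from E14.5 to E15.5 was fixed by the choice of the probes, here and at the fallers. At the 101 fallers the wild-type medians were 2.50 and 2.58, then 0.99 and 1.24, then 0.71 and 0.87. The E16.5 and E14.5 comparisons both use the E15WT arrays, so their calls are not set against each other.

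Single probes followed that order in most cases. Z00040191-1 stood at 5.73 and 5.85 at E16.5 in wild type and Z00042679-1 at 5.62 and 5.69. Z00023199-1 stood at 1.00 and 1.49. Of the 12 highest rises, 11 had both E16.5 arrays above both E15.5 arrays, and of the 12 largest falls 7 had both E16.5 arrays below both E15.5 arrays and 2 had both above. The share of all probes with such an order at E16.5 is not given here, so these counts only describe the 12. With 2 arrays in each group such orders are common: from E14.5 to E15.5, 27.0% of all probes lay wholly higher and 35.0% wholly lower.

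**Figure D5:**
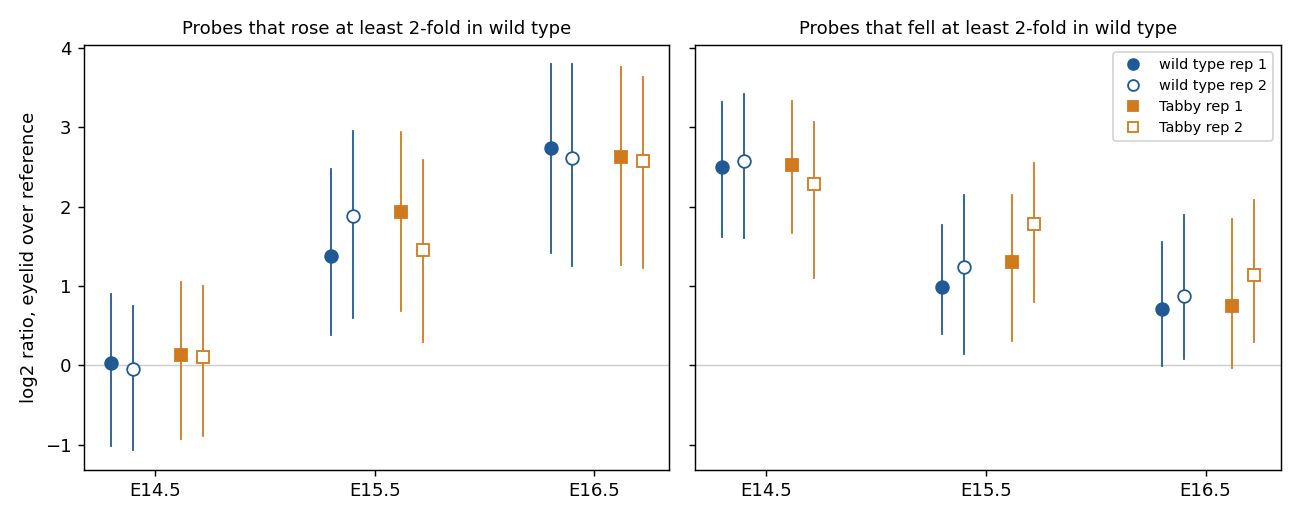
Median log2 ratio of eyelid over reference (points) with the quartiles over probes (lines) on each of the 12 arrays, for the 573 probes that rose (left) and the 101 that fell (right) at least 2-fold in wild type between E14.5 and E15.5. On the left, the E15.5 wild-type arrays, with replicate 1 at 1.38 and replicate 2 at 1.88, lie between the other stages.

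The changes were also read in the eyelid channel by itself. That channel is part of the ratio by which the large risers and fallers were picked, so agreement in direction is favoured by the choice. Over all 31274 probes tested, the eyelid channel and the ratio changed in the same direction at 24956. In Cy3 alone, scaled to the 75th percentile of each array, the median change was 2.10 at the 573 risers, of which 572 were higher, and -1.32 at the 101 fallers, all lower. The reference was the same RNA pool on every array, and its Cy5 signal changed by a median of 0.14 at the risers and -0.13 at the fallers. It differed by at least 2-fold between the stages at 120 of the 573 risers and at 285 of all 31274 probes. Fitted alone, the reference channel gave 184 called probes, and 96 of these were large risers in the ratio, each with more Cy5 signal at E15.5. At Z00052819-1, which was below the Cy3 background limit at E14.5, the Cy3 signal rose by 11.52 and the Cy5 signal by 6.23 (log2). A rise of the reference makes the ratio smaller than the eyelid change; its part in the result was not tested.

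Probes that share sequence moved together. Among the probes tested, 1141 pairs shared a run of at least 20 bases (1867 probes, median run 36 bases). In 288 pairs at least 1 probe was called, and in 280 of them both probes changed in the same direction. In 181 pairs both were called, and 0 of these moved in opposite directions. The change differed within a pair by a median of 0.04, and the correlation across pairs was 0.93. For the gap between the E15WT replicates that correlation was 0.86. Of 36 pairs with at least 1 probe whose replicates lay 2-fold apart or more, 35 had the same sign of the gap in both probes. Members of a pair share sequence and array, so they are repeat measurements of 1 RNA sample and not replicates of the stage.

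In the pair with the open frame, Z00045240-1 read -1.47 and -1.70 at E14.5 and 2.03 and 2.38 at E15.5. Z00060225-1 read -1.25 and -1.57, then 2.03 and 2.35. Both changed from less eyelid than reference signal to more. The differences were 3.79 (SE 0.24) and 3.60 (SE 0.22), each with an adjusted p of 8.2e-05, and at E16.5 the probes stood at 3.40 and 3.22 and at 3.28 and 3.13.

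Z00025964-1 and Z00047655-1, which share 32 bases, rose by 3.12 (SE 0.55) and 3.68 (SE 0.62). At E14.5 the first read 2.33 and 1.39 and the second 1.34 and 0.64, and at E15.5 they read 4.86 and 5.09 and 4.53 and 4.80. Both probes had replicate 1 higher at E14.5 and replicate 2 higher at E15.5. Their adjusted p-values were 0.0067 and 0.0057.

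Of the falling pairs, Z00049101-1 and Z00054196-1 share 58 bases and fell by 1.88 and 1.87. The first read 3.08 and 2.31 at E14.5 and 1.25 and 0.39 at E15.5. Their adjusted p-values of 0.048 and 0.043 became 0.089 and 0.087 with only the 4 wild-type arrays. In Tabby the pair changed by -0.98 and -0.97, which was not called. Z00072949-1 and Z00073695-1 share 44 bases and fell by 1.69 (adjusted p = 0.0037) and 1.23 (adjusted p = 0.0067). The first read 2.44 and 2.47 at E14.5 and 0.44 and 1.09 at E15.5, and -0.07 and 0.09 a day later.

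Among the 101 large fallers, 19 had E15WT replicate 1 above replicate 2 by more than 0.5, like the 58-base pair. At 15 of the 19, E14WT replicate 1 was the higher E14.5 array as well, and at 17 of them E15Ta replicate 2 was above replicate 1. These 19 probes had a median change of -1.54 in wild type and -0.98 in Tabby, where 3 were called. Their median level was 1.29 at E14.5, -0.25 at E15.5 and -0.09 at E16.5. Another 34 fallers had replicate 2 higher by more than 0.5, with medians of 3.15, 1.97 and 1.64, and 17 of them were called in Tabby. At 7 of the 34, E14WT replicate 1 was the higher E14.5 array, and at 33 of them E15Ta replicate 2 was above replicate 1. The order of the E15Ta replicates was thus shared by both sets. Of the 19 and the 34 probes, 1 and 3 were called with the 4 wild-type arrays alone. A wide E15WT gap, by which they were picked, adds to the spread in that fit, so few calls there follow from the choice. Of all 101 large fallers, 38 were called in that fit and 49 in Tabby. The split also depends on the processing: with processed signals, replicate 2 was the higher array at 10 of the 101.

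Brightness and base composition of the probes went with the share called. In 4 bins of equal size, from dim to bright, 6.71%, 16.7%, 23.3% and 23.2% of the probes were called. Large rises were most frequent in the third bin (2.71% of probes) and large falls in the second (0.729%). By GC content, 19.0% of probes were called at 35% GC or less, 15.4% between 50% and 55% and 8.17% above 60%. Median brightness, as the mean log2 of both channels, was 9.51, 8.33 and 8.13 in those bins. The large risers had a median GC content of 45.0%, that of all probes tested, and the large fallers 41.7%.

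The motifs AATAAA and ATTAAA, the usual signals for polyadenylation near the end of a transcript, were searched on the sense strand of the probes. Either was found in 10.4% of all probes tested, in 81 of the 573 large risers (14.1%) and in 15 of the 101 large fallers (14.9%). It was found in 12.7% of all risers and in 10.7% of all fallers. These letters describe where a probe may lie in its transcript and are no measurement of processing.

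A few probes could be placed at a gene. Of 42006 probes, 138 matched the sense strand at the annotated start of exactly 1 gene over at least 30 bases. The match was to the RefSeq promoter table of build GRCm38.p6, which holds 250 bases before and 50 bases after each start. Most of these probes run past the end of that window, and the rest of their sequence was not checked. Of the 138, 80 were tested and 7 (8.75%, against 17.5% of all probes tested) were called, 3 up and 4 down, none by 2-fold. The median difference of the 80 was -0.03.

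Madcam1 encodes an adhesion molecule of the vessel wall that binds lymphocyte integrins, and it belongs to the list of ectodysplasin pathway genes and targets drawn up for this comparison. The first 34 bases of its probe lie at chr10:79664575-79664608, on the plus strand just after the annotated start. It read 0.35 and 0.31 at E14.5 and 0.06 and 0.17 at E15.5, without overlap. The fall of 0.22 (SE 0.06) had an adjusted p of 0.044 in limma, and 0.11 with only the 4 wild-type arrays. The call was lost in 17 of 25 alternative settings. In Tabby the change was -0.14 (adjusted p = 0.17).

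The largest change among placed probes was a rise of 0.63 (SE 0.15, adjusted p = 0.025) at Pitpnm2, a membrane-associated phosphatidylinositol transfer protein. Its probe matched over 45 bases at chr5:124249711-124249755, minus strand, and read -0.39 and -0.35 at E14.5 and 0.17 and 0.36 at E15.5. Crxos, on chromosome 7, rose by 0.42 (adjusted p = 0.0023), and Leng1, also on chromosome 7, by 0.32 (adjusted p = 0.0093). Both rises were called with the 4 wild-type arrays alone, at adjusted p-values of 0.049 and 0.045.

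Gstp1, a glutathione S-transferase of detoxification, fell by 0.30 (SE 0.07, adjusted p = 0.023), to -1.22 and -1.37 at E15.5. Mice carry a near-identical copy of this gene, so the probe may read both. H4c3 encodes a histone H4, 1 of a family of near-identical copies, and fell by 0.29 (adjusted p = 0.017). Sec61b, a subunit of the channel that moves new proteins into the endoplasmic reticulum, fell by 0.26 (adjusted p = 0.032). None of these 3 falls was called with the 4 wild-type arrays alone, with adjusted p-values of 0.088, 0.059 and 0.058. All 3 had both E15.5 arrays below both E14.5 arrays.

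Of 640 genes in 24 lists of eyelid, skin and pathway genes, 3 had a placed and tested probe, so the lists could not be described. Besides Madcam1 these were Crygs, a crystallin of the lens, with a difference of -0.07 (adjusted p = 0.58), and Uty, a gene of the Y chromosome, with -0.05 (adjusted p = 0.72).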

How the data were processed

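Per the file headers, the deposited files hold the intensity of each spot in Cy3 and Cy5, measured with Agilent Feature Extraction 9.5.1.1, the signals it processed and the log10 of red divided by green. The authors also deposited a log10 value table, whose scale, centring and direction the labels do not give. Its columns, with medians of 2.33 to 2.35, rise with eyelid signal, and it served as an alternative.

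Intensities were corrected by normexp (offset 50) and normalised by loess within arrays in limma 3.58.1 (R 4.3.3), with 1417 control spots at weight 0. The sign was turned to eyelid over reference. Control spots and outlier-flagged spots (2 to 23 per array) were left out. The fit (lmFit, eBayes) gave each of the 6 groups a mean over all 12 arrays, with 6 residual degrees of freedom. It used 2-sided tests and Benjamini-Hochberg adjustment over the probes tested. The pooled spread is narrower than that of E15WT. The offset draws dim ratios towards 0. With 2 arrays per group, the number of arrays limits the precision. The fit was tested on simulated data.

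The files do not pair probes with genes, so the rule for named genes was applied to probe identifiers: at most 2 in each direction per result, and other probes by counts and ranges. The pairs, the probes with the widest replicate gaps, the bins by ratio level and the placed genes were chosen after values were seen. The stage comparison and the gene lists were chosen with earlier results of these data known.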

Additional observations from a re-analysis of the deposited data

Results flagged for a closer look

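At 1 of the probes described, Z00057956-1, every wild-type array moved one way and every Tabby array the other. It read 0.07 and 0.07 at E14.5 and -0.13 and -0.16 at E15.5 in wild type, and -0.14 and -0.17 against 0.11 and -0.01 in Tabby. The wild-type change minus the Tabby change was -0.43, with an unadjusted p of 0.00029 and an adjusted p of 1.0 in limma, so it did not pass the correction. It was picked as the second smallest p of the interaction. In wild type, the Cy3 signal of this probe alone changed by -0.13 (log2, adjusted p = 0.69 in limma) and its Cy5 signal by 0.27.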

How the results depend on the processing

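Centring by the median in place of loess gave 1380 calls, 373 rises of 2-fold or more, 33 calls among probes well above background at 1 stage only (69 in the main setting) and a median difference of -0.13 over all probes, against -0.02. With Feature Extraction's processed signals, 915 probes rose at least 2-fold and 145 probes of the 1-stage set were called. With its ratio and with the authors' value table the rises numbered 875, the falls 155 and the 1-stage calls 163, and with the eyelid channel alone 1082, 229 and 202. With only the 4 wild-type arrays there were 2048 calls, 40 large falls and 20 1-stage calls. The reference channel alone, added after the data were seen, gave 184 calls. At offset 16 the E15WT replicates lay over 2-fold apart at 1291 probes, against 372. The share of wild-type calls with the same sign in Tabby, 98.96%, was 98.32% with processed signals, 98.20% with the ratio, 99.20% with median centring, 98.22% with the value table and 98.34% with 8 arrays.

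Leaving out 1 array gave 1788 to 6701 calls, 37 to 211 large falls, 20 to 88 1-stage calls, 0 to 669 interaction calls (669 without E15WT replicate 2, 1 without E15Ta replicate 2 and 0 otherwise) and 87.06% to 99.48% of calls with the same sign in Tabby. None of the named probes and called genes changed direction under these alternatives. Of 25 alternatives, the call was lost in 17 for Z00056378-1 and Madcam1, 15 for Z00049101-1, 12 for Z00054196-1, 10 for Z00057956-1 and Sec61b, and at most 5 for each of the others. With the replicate number as a block, 5487 probes were called, and Z00056378-1, Z00049101-1, Z00054196-1 and Madcam1 lost their calls (adjusted p = 0.058, 0.056, 0.050 and 0.056 in limma). The numbers were taken as names only: the deviations of E14WT and E15WT correlated at 0.02 across probes, and 3 of 15 pairs of groups were over 0.1, the highest at 0.25. The gene lists, and the mean over all probes of a gene, gave no values, since genes could not be matched. Dim probes limit the bounds on falls at 1 stage.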
